A study of Homo sapiens with 4 samples.

Results

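Open chromatin was described around 10 genes of the Toll-like receptor system in HL-60 cells: TLR1, TLR2, TLR4, TLR5, TLR6, TLR8, TLR9, TLR10, the co-receptor CD14 and the adaptor MYD88. Toll-like receptors recognise conserved microbial molecules. The receptors for lipids, lipoproteins and flagellin act mainly at the cell surface and those for nucleic acids in endosomes, and most of them signal through MYD88 to NF-kB and IRF factors. Granulocytes and monocytes use them to sense bacteria, and immature myeloid cells acquire much of this equipment as they mature.

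The cells were HL-60, a human leukemia line derived from peripheral blood. The ATRA group received 1 µM all-trans retinoic acid, which drives these cells towards granulocytes, for 4 days, and the control group received an equal amount of the ethanol solvent for the same time. Each group had 2 libraries, called ATRA 1, ATRA 2, control 1 and control 2. The study describes its ATAC-seq replicates of this single line as biological and independent. Open DNA was mapped by ATAC-seq, a method that lets a transposase insert adapters where chromatin is accessible, and the values used were lists of peaks, the places where insertions pile up.

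Around each gene a window was drawn from 50 kb before to 50 kb after the gene body (hg19, GENCODE). The overlapping windows of TLR10, TLR1 and TLR6 were merged, which left 8 windows. Peaks of all libraries that overlapped by at least 1 bp were joined into regions, and 84 of the 78063 regions of the series lay in the windows. A region counted as ATRA-only when both ATRA libraries and neither control library had a peak in it, and as control-only in the reverse case. The strength of a peak is given as its score percentile, the rank of its score within its own list from 0 to 100, since the scale of the deposited score is not stated. Among regions with a peak in all 4 lists, a region was called higher or lower in ATRA when the percentiles of the groups did not overlap. The windows also hold other genes, and the nearest protein-coding start site was that of a member for 52 of the 84 regions. Promoter means from 1 kb before to 100 bp after any annotated start site, and distances run from the main start site of a gene to the middle of a region.

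The list of ATRA 2 was the longest, with 63541 peaks against 42081 to 45903 in the other libraries, and its peaks were the widest. Read counts were not given, so depth was unknown. Of 7 myeloid markers, 3 (SPI1, CEBPE and CD33) had a promoter peak in all 4 lists. This share of 42.9% was close to the 42.6% of all protein-coding genes. CEBPA had a promoter peak in 3 lists, MPO in 2, CSF3R in 1 and ELANE in none. Of the markers of T, B, erythroid, epithelial and monocytic cells, 4 each, 0 had one in all 4 lists. The epithelial marker KRT8 had one in 3 lists. In bulk chromatin, a change in the number of open cells and a change of openness in each cell cannot be told apart.

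Stretches of 200 bp from 9 regions that carry the differences and contrasts described here are shown first. They were taken near the middle of each region outside annotated exons, from the plus strand of hg19 (GRCh37). Capitals mark letters searched on both strands as short forms of known binding motifs. Those of the myeloid regulators were GAGGAAGT for PU.1 and TTGCNNAA for CEBP, and those of RUNX were AACCACA. The GATA factors were searched as AGATAA, and also as TGATAA. The signalling factors were searched as TGANTCA for AP-1, as GAAANNGAA for IRF and as GGGANTTTC for NF-kB. The retinoid receptors were searched as AGGTCA, or else as GGTTCA. In the stretches shown, matches of different motifs shared no letters, whereas the pair of CEBP matches at the TLR4 start site overlapped each other.
TLR4, 22.3 kb upstream, lower in both ATRA libraries (chr9:120444273-120444472): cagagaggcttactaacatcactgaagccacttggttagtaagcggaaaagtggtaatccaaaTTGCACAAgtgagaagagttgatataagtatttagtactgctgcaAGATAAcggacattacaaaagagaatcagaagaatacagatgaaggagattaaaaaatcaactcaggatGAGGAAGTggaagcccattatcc
TLR4, start site, all 4 libraries (chr9:120466844-120467043): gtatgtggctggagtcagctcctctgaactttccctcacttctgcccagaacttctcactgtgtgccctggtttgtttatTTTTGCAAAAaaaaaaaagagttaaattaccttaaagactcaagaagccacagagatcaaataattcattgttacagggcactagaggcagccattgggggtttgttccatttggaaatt
TLR5, 47.3 kb upstream, control libraries only (chr1:223363777-223363976): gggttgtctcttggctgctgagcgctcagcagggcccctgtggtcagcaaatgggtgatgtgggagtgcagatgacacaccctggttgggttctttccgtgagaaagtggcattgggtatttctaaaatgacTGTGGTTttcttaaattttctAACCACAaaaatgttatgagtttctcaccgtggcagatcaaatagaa
TLR5, start site, lower in both ATRA libraries (chr1:223316591-223316790): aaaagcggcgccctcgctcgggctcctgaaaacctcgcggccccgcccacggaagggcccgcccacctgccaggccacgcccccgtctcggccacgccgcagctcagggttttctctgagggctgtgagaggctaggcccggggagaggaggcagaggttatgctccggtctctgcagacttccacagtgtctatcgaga
TLR9, start site, absent from ATRA 1 (chr3:52259931-52260130): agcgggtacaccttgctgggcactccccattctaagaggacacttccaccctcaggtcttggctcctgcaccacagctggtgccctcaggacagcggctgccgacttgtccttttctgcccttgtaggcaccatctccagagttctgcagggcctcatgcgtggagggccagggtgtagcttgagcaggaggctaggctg
TLR1, 0.9 kb upstream, higher in both ATRA libraries (chr4:38807238-38807437): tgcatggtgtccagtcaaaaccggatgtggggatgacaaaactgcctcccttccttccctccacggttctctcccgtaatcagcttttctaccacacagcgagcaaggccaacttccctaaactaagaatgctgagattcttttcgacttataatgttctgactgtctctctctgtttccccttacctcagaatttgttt
TLR6, 1.0 kb upstream, ATRA libraries only (chr4:38859344-38859543): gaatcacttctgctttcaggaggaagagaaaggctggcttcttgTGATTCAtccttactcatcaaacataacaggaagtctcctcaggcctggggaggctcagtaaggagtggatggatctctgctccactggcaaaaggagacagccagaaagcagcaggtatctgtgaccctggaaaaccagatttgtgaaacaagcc
TLR10, 51.8 kb downstream, ATRA libraries only (chr4:38732715-38732914): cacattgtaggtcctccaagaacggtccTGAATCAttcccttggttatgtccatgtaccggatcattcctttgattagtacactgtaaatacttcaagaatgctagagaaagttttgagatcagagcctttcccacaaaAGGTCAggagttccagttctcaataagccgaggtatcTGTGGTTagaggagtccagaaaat
CD14, 1.9 kb downstream, ATRA libraries only (chr5:140010722-140010921): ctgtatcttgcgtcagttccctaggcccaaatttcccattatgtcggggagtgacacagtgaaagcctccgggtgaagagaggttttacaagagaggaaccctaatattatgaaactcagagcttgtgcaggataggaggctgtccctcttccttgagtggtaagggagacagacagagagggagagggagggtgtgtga

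**Figure D1:**
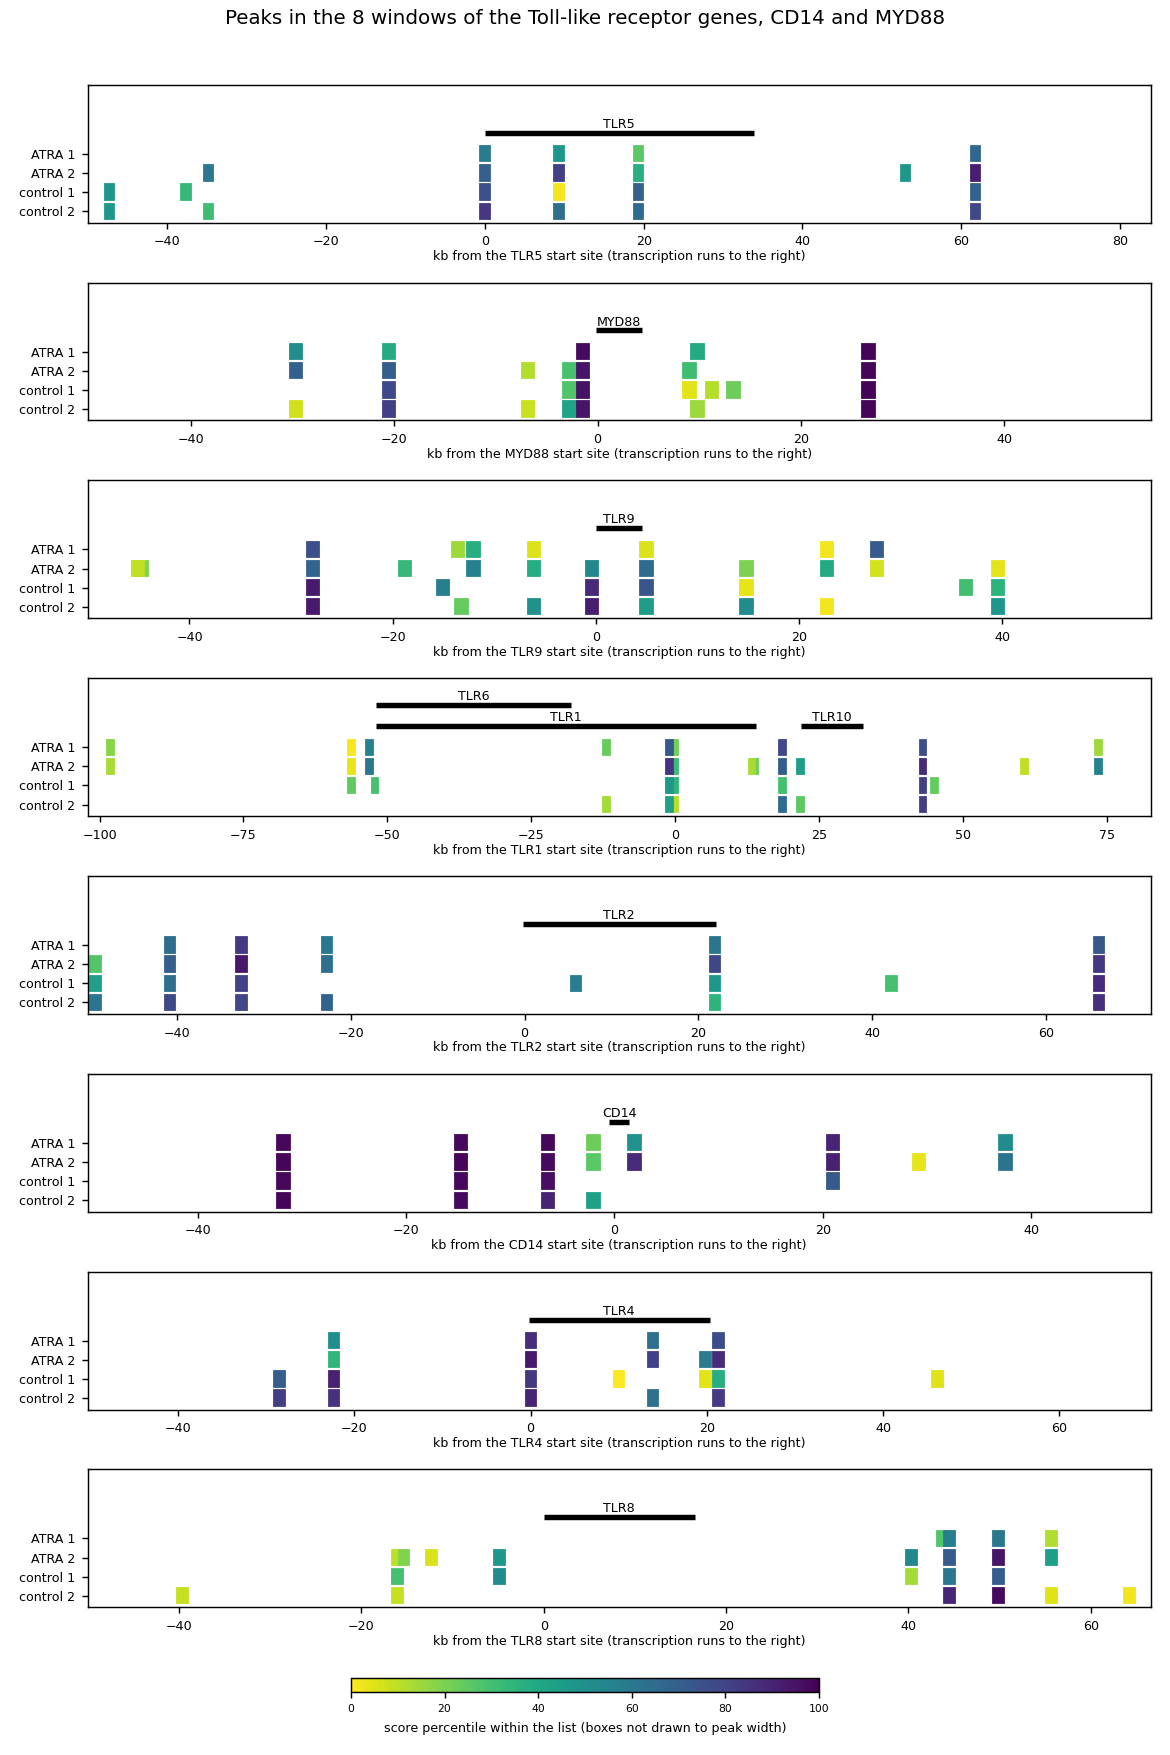
Regions with a peak in each library, for the 8 windows. The x axis is the distance in kb from the start site of the named gene in the direction of transcription, each row is a library, and the colour of a box is the score percentile of its peak. Black bars are the genes, and the boxes are all drawn at the same width. Around CD14 the 4 regions downstream of the start site had boxes mostly in the ATRA rows, whereas 28.5 kb upstream of TLR4 only the control rows had one.

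TLR4, the receptor for bacterial lipopolysaccharide, kept an open promoter in every library while 2 regions upstream of it were weaker or absent after ATRA. The TLR4 gene lies on the plus strand of chromosome 9 (chr9:120466453-120487013). Its promoter region (chr9:120466128-120467299) had percentiles of 86.9 in ATRA 1, 93.6 in ATRA 2, 84.2 in control 1 and 89.9 in control 2. The groups overlapped there, and all 4 peaks were in the upper part of their lists. The region 22.3 kb upstream (chr9:120444092-120444654) had a peak in all 4 lists, at 50.8 in ATRA 1, 34.7 in ATRA 2, 91.0 in control 1 and 85.8 in control 2. Both control peaks ranked far above both ATRA peaks, with means of 88.4 ± 3.7 against 42.8 ± 11.4 (SD, n = 2 each), the largest difference of the 25 regions with a peak in all 4 lists (-45.6, ATRA minus control). Its stretch above holds the letters of PU.1, CEBP and GATA. Farther out, 28.5 kb upstream, control 1 had a peak at 70.7 and control 2 at 81.5, and neither ATRA list had one. This intergenic region was control-only. Downstream of the start site, regions chosen after their values were seen did not show this order. That 13.9 kb downstream ranked at 63.6 in ATRA 1, 81.0 in ATRA 2 and 63.0 in control 2, with no peak in control 1. At 21.3 kb downstream the groups overlapped (76.7 and 87.6 in ATRA against 37.4 and 82.5 in control).

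CD14, which binds lipopolysaccharide and hands it to TLR4 with LY96, had more peaks in its window in the ATRA libraries. CD14 lies on the minus strand of chromosome 5 (chr5:140011313-140013285), and no library had a peak at its promoter. Its window held 7 peaks in ATRA 1, 8 in ATRA 2, 4 in control 1 and 4 in control 2, covering 4182, 6242, 2655 and 2516 bp. Both ATRA libraries were above both control libraries in number and in covered length. The region 1.9 kb downstream of the start site (chr5:140010463-140011181), just past the end of the gene, was ATRA-only, with a peak at 48.5 in ATRA 1 and 88.1 in ATRA 2. A second ATRA-only region lay 37.5 kb downstream (chr5:139974962-139975520), at 51.7 and 62.0. Between them, 21.0 kb downstream, a region chosen after its values were seen had peaks at 89.9 in ATRA 1, 90.7 in ATRA 2 and 72.4 in control 1, and none in control 2. A region 2.0 kb upstream, also chosen after its values were seen, did not lean to ATRA. It ranked at 22.3 in ATRA 1, 26.1 in ATRA 2 and 43.7 in control 2, with no peak in control 1. The upstream side of the window holds promoters of other genes, and these were strong in every library. The region at the start of WDR55, 31.7 kb upstream, ranked at 98.3 to 98.7 in all 4 lists. The 2 regions of this window called higher in ATRA were also promoters of other genes, that of TMCO6 (98.3 and 97.1 against 96.1 and 90.1) and that shared by IK and NDUFA2 (98.0 and 98.7 against 97.7 and 97.3), and their differences were small.

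TLR1, TLR6 and TLR10, which form a cluster on the minus strand of chromosome 4 and encode partners of TLR2 or relatives of these partners, shared a window with 9 peaks in ATRA 1, 13 in ATRA 2, 7 in control 1 and 6 in control 2. The TLR1 promoter held a pair of regions. That 0.9 kb upstream of the main start site (chr4:38807038-38807637) had percentiles of 72.4 in ATRA 1, 84.5 in ATRA 2, 46.9 in control 1 and 42.6 in control 2. Both ATRA peaks were above both control peaks, with means of 78.4 ± 8.6 and 44.7 ± 3.0 (SD, n = 2 each), and the difference of 33.7 was the highest of the 25 shared regions. The second region lay at the start site itself (chr4:38806298-38806788) and did not separate the groups, at 21.3 in ATRA 1, 32.0 in ATRA 2, 34.4 in control 1 and 10.4 in control 2.

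At the TLR6 promoter the libraries used different regions. The region 1.0 kb upstream (chr4:38859174-38859714) was ATRA-only, at 55.5 in ATRA 1 and 60.4 in ATRA 2, and its stretch above holds an AP-1 match. Control 1 had a peak at 29.6 in a separate region at the start site, and control 2 had none. An upstream start site of TLR1 lies at the same place as that of TLR6, so both genes share this promoter. The TLR10 promoter was weaker, with a peak at 43.8 in ATRA 2, a lower-ranking one in control 2 and none in the other libraries. A region 3.2 kb upstream of TLR10 (chr4:38787549-38788117) ranked at 79.0 in ATRA 1, 71.4 in ATRA 2, 29.8 in control 1 and 65.5 in control 2. The ATRA peaks were above the control peaks, but the percentiles overlapped once ranks were taken only among regions shared by all 4 lists (64.2 and 36.5 against 13.6 and 43.4). The strongest shared region of the window, 21.2 kb downstream of the TLR10 start, lay between 75.9 and 88.1 in every library. The other ATRA-only regions of the cluster lay 51.8 kb downstream of TLR10 (14.7 in ATRA 1 and 56.4 in ATRA 2) and 46.1 kb upstream of TLR6, in an intron of FAM114A1 (17.7 and 13.1). They ranked low in at least 1 library.

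TLR2, which pairs with TLR1 or TLR6 to recognise bacterial lipoproteins, had no promoter peak in any list, and its window held 5 to 7 peaks per library. None of its regions was ATRA-only or control-only, and 2 had a peak in control 1 alone. The region at the downstream end of the gene (chr4:154626979-154627679) had percentiles of 61.1 in ATRA 1, 78.9 in ATRA 2, 47.1 in control 1 and 35.5 in control 2. Both ATRA peaks were above the control peaks, with means of 70.0 ± 12.6 and 41.3 ± 8.2 (SD, n = 2 each). The strongest shared region, 32.6 kb upstream (chr4:154572370-154573357), was high in every library at 83.1, 93.7, 80.3 and 79.0 in the same order. There the ATRA peaks were also above the control peaks, by 8.7 on average. A region 66.0 kb downstream, in an intron of RNF175 and chosen after its values were seen, had the reverse order. It ranked at 72.9 in ATRA 1, 83.9 in ATRA 2, 88.2 in control 1 and 86.7 in control 2.

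TLR5, the receptor for flagellin, had a promoter peak in every list, which ranked lower in both ATRA libraries. The gene is read from the minus strand (chr1:223282746-223316590). Its promoter region (chr1:223316290-223316893) had percentiles of 58.8 in ATRA 1, 69.8 in ATRA 2, 76.1 in control 1 and 84.3 in control 2. The groups did not overlap, and the difference of means was -15.9. A region in an intron 19.4 kb downstream of the main start site (chr1:223297058-223297378) differed more, at 25.4 in ATRA 1, 37.2 in ATRA 2, 68.4 in control 1 and 65.6 in control 2. Both control peaks were nearly alike and well above the ATRA peaks, with a difference of -35.7. Another intronic region, 9.4 kb downstream and chosen after its values were seen, had a mean difference in the other direction (31.4). The groups overlapped there, at 47.6 in ATRA 1, 80.8 in ATRA 2, 1.7 in control 1 and 63.8 in control 2. A control-only region lay 47.3 kb upstream of TLR5 (chr1:223363718-223364035), where control 1 had a peak at 47.0 and control 2 at 46.7. Its stretch above holds 2 RUNX matches. In contrast, the strongest shared region, 61.8 kb downstream and past the gene, overlapped between the groups (67.0 and 91.5 against 69.1 and 78.3).

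**Figure D2:**
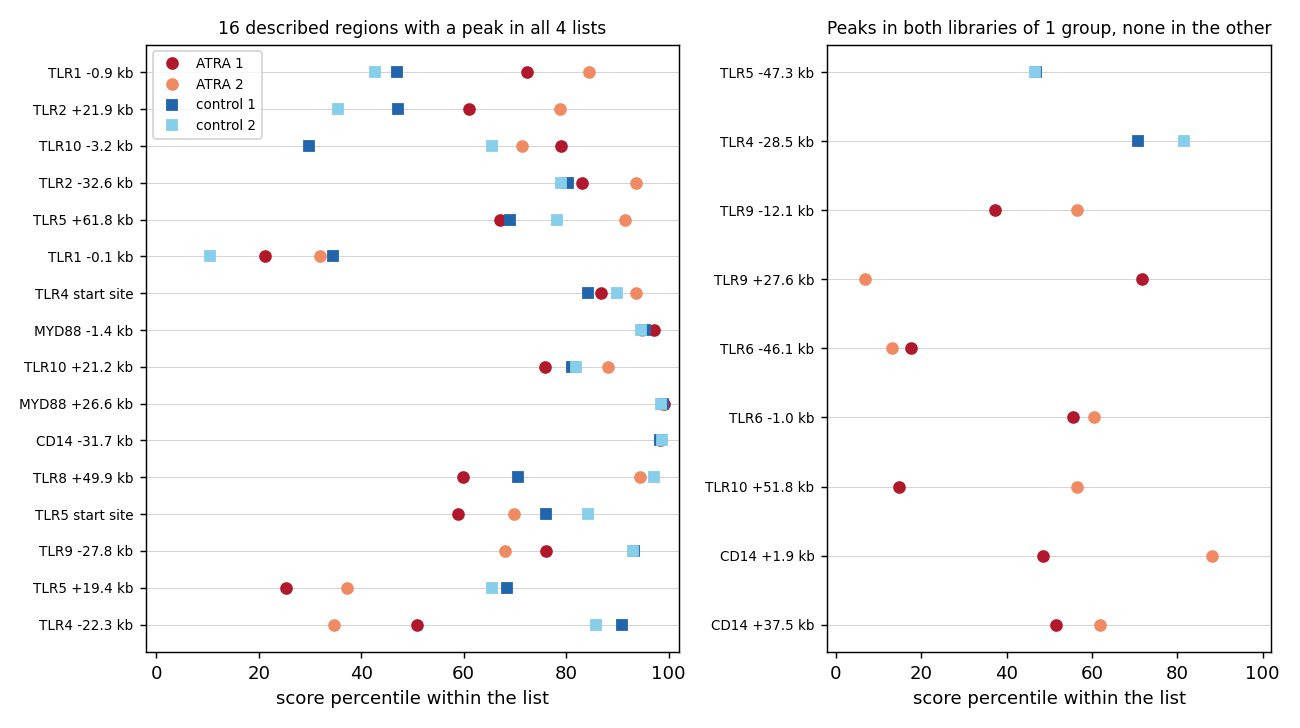
Score percentile of each peak in 16 regions with a peak in all 4 lists (left) and in the 9 regions with peaks in both libraries of a group and in neither library of the other (right). The x axis is the rank of the score within its list, 0 to 100, circles are ATRA and squares control libraries, and labels give the nearest member and the distance from its start site in kb, negative upstream. The region 22.3 kb upstream of TLR4 had its ATRA peaks at 50.8 and 34.7 and its control peaks at 91.0 and 85.8, and the region 0.9 kb upstream of TLR1 showed the reverse order.

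Among the endosomal receptors, TLR9, which senses unmethylated CpG DNA, had a promoter that was high in both control libraries and lower or absent after ATRA. The gene is read from the minus strand (chr3:52255096-52259661), and its promoter region (chr3:52259484-52260578) had peaks at 87.9 in control 1 and 91.7 in control 2. ATRA 2 had a peak at 53.5 and ATRA 1 had none. Peak widths ran in the same direction, with 758 bp in ATRA 2, 826 bp in control 1 and 1095 bp in control 2. The window also held 2 ATRA-only regions, both at neighbouring genes. A promoter region of ALAS1, the first enzyme of heme synthesis, had a peak at 71.8 in ATRA 1 and 6.9 in ATRA 2, which is close to the bottom of that list. An intron of TWF2 had peaks at 37.4 and 56.5. Another ALAS1 promoter region, at a different start site and chosen after its values were seen, was not ATRA-only. It had peaks at 19.8 in ATRA 2, 3.8 in control 1 and 51.7 in control 2, and none in ATRA 1. A region 27.8 kb upstream of TLR9, near PPM1M, was lower after ATRA, at 76.0 in ATRA 1, 68.0 in ATRA 2, 93.2 in control 1 and 93.0 in control 2. The control values were nearly equal. With ranks taken only among regions shared by all 4 lists, the values were 59.6 and 31.4 in ATRA against 88.2 and 86.7 in control.

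TLR8, a receptor for single-stranded RNA, had no peak at its promoter or within its gene body in any list. Its window held 11 regions, of which 2 had a peak in all 4 lists and 5 in a single list, and none was ATRA-only or control-only. The strongest, 49.9 kb downstream of the start site (chrX:12973928-12975377), ranked at 59.9 in ATRA 1, 94.5 in ATRA 2, 70.7 in control 1 and 97.1 in control 2. The libraries with replicate number 2 were the high ones here, in both groups.

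MYD88, the adaptor shared by most of these receptors, lay beside open promoters that ranked near the top of every list. The gene is on the plus strand of chromosome 3 (chr3:38180043-38184515). A region shared with the promoter of its neighbour ACAA1, 1.4 kb upstream of the main MYD88 start site (chr3:38178304-38179208), ranked at 97.2 in ATRA 1, 94.9 in ATRA 2, 95.4 in control 1 and 94.7 in control 2. The peak of control 1 ended short of the promoter bound of MYD88, so by the definition used here MYD88 had a promoter peak in 3 lists. The region at the start of OXSR1, 26.6 kb downstream, ranked at 98.5 to 99.2. No region of this window was ATRA-only or control-only. A region 20.5 kb upstream, in DLEC1 and chosen after its values were seen, was lower in ATRA 1 (38.9) and ATRA 2 (70.5) than in control 1 (78.0) and control 2 (81.3).

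**Figure D3:**
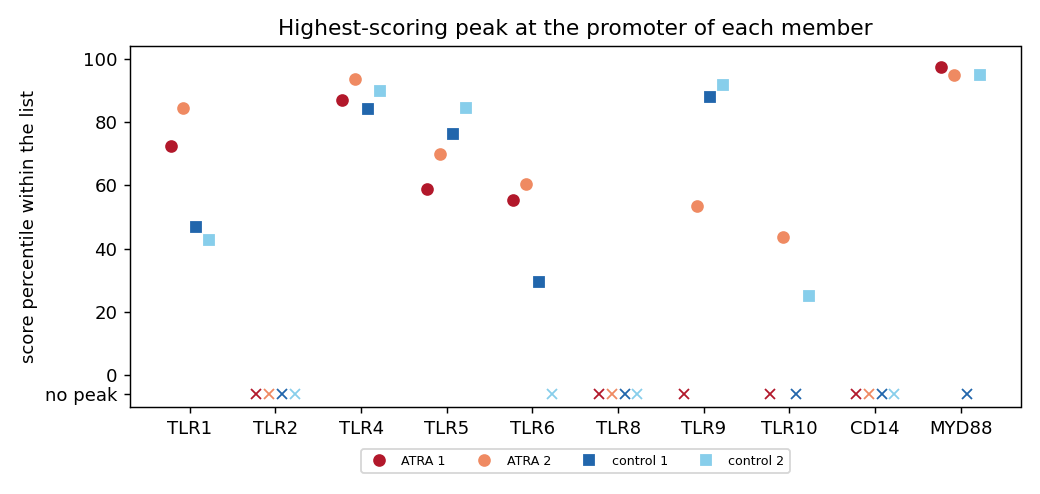
Score percentile of the highest peak at the promoter of each gene, 1 kb before to 100 bp after any annotated start site. Circles are ATRA and squares control libraries, and crosses mark libraries with no promoter peak. TLR1, TLR4 and TLR5 had a peak in every library, the order of the groups at TLR1 was opposite to that at TLR5, and TLR2, TLR8 and CD14 had none.

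Across the 10 genes, promoters were thus open in all 4 lists for 3 (TLR1, TLR4 and TLR5), in some lists for 4 and in none for 3 (TLR2, TLR8 and CD14). Of all protein-coding genes, 42.6% had a promoter peak in all 4 lists and 43.1% in none. The member windows were rather rich in regions, with a median of 10.5 per gene against 6 for all genes. An ATRA-only region lay in the window of 5 of the 10 genes (TLR1, TLR6, TLR10, TLR9 and CD14), compared with 40.9% of all protein-coding genes. Control-only regions lay in the windows of TLR4 and TLR5 alone, 2 of 10, compared with 16.5% of all genes. No member had both kinds, compared with 1606 of all 20163 protein-coding genes. The windows of TLR1, TLR6 and TLR10 overlap, so these genes shared regions and are not separate observations.

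Counted as regions, the members were close to the genomic background. Of the 84 regions, 7 (8.33%) were ATRA-only, against 8.89% of the 61736 regions in windows of all protein-coding genes, and 2 (2.38%) were control-only, against 3.28%. With every list cut to the length of the shortest, the first count was again 7 and the second became 7. The cut removes the lowest-ranking peaks, so the 7 ATRA-only regions were not all the same ones. The shares over all genes with cut lists were not counted. A peak in all 4 lists was found in 25 regions (29.8%, background 32.3%). Of these 25, 6 (24.0%) were higher in both ATRA libraries, below the 30.5% found over all genes, and 6 (24.0%) were lower, above the 12.0% over all genes. The 6 higher regions lay in the windows of the TLR1 cluster, TLR2 and CD14, with 2 in each, and those of CD14 were promoters of other genes. The 6 lower regions lay in the windows of TLR5 (2), TLR4, TLR9, TLR2 and MYD88. The median difference over the 25 regions was 0.5, compared with 2.8 over all 23653 shared regions of the series.

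All other regions had a peak in some but not all libraries of a group. A single list held the only peak in 26 regions, of which control 1 held 11 and ATRA 2 held 10, while ATRA 1 held 2 and control 2 held 3. The share for control 1 was 13.1%, against 4.42% in the windows of all genes, and that for ATRA 2 was 11.9%, against 18.3%. In 15 regions a single list lacked a peak, and that list was control 1 in 7 (8.33%, against 4.86% over all genes) and ATRA 1 in 6 (7.14%, against 5.49%). ATRA 2 lacked none of these, and at 21 of the 25 shared regions its peak was the widest of the 4.

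**Figure D4:**
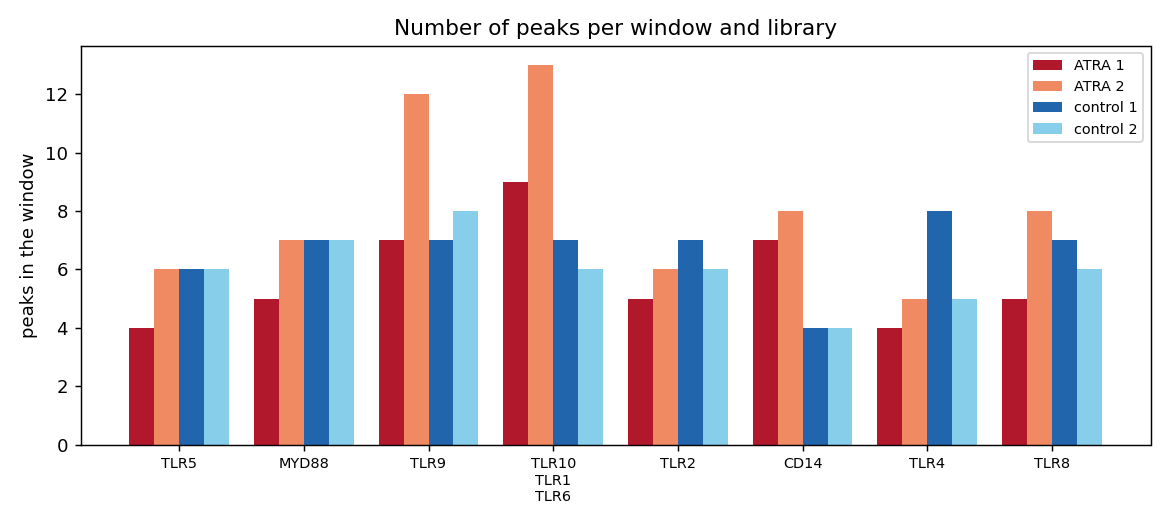
Number of peaks in each window and library, with bars that start at 0. The CD14 window held 7 and 8 peaks in the ATRA and 4 and 4 in the control libraries, and the TLR10, TLR1 and TLR6 window 9 and 13 against 7 and 6. The TLR4 window held 4 and 5 against 8 and 5. The 8 of control 1 include peaks at percentiles of 0.4, 4.3 and 4.9, near the bottom of its list.

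Taken over all windows, the values of the libraries overlapped between the groups. The windows held 46 peaks of ATRA 1, 65 of ATRA 2, 53 of control 1 and 48 of control 2. As a share of each list this was 0.106%, 0.102%, 0.126% and 0.105%, with means of 0.1040% ± 0.0025 and 0.1153% ± 0.0151 (SD, n = 2 each; two-sided exact permutation p = 0.667). The high value was that of control 1, and control 2 lay between the ATRA libraries. The median percentile of these peaks was 56.6 in ATRA 1, 56.4 in ATRA 2, 47.1 in control 1 and 63.4 in control 2. The control libraries lay on either side of the ATRA libraries (two-sided exact permutation p = 1). With 2 libraries in each group this test cannot give a p-value below 0.333, and for single regions no test was made. The overlap depended on the setting, since the median percentiles of the groups separated at a score of at least 100 (difference -10.2, ATRA minus control) and in windows of 10 kb (12.6), in opposite directions.

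Beyond the members, 44 further genes of the pathway were read in the same way. A promoter peak in all 4 lists was present for 24 of the 44 (54.5%, against 42.6% of all protein-coding genes) and in no list for 8 (18.2%, against 43.1%). Of these 24 promoters, 14 (58.3%) ranked higher in both ATRA libraries, against 38.6% over all genes, and 0 ranked lower, against 6.87%. Among the 14 were transcription factors at the end of the pathway. NFKB1, the precursor of the NF-kB subunit p50, had a promoter at 93.7 in ATRA 1, 94.5 in ATRA 2, 46.4 in control 1 and 39.8 in control 2. The ATRA values were near the top of their lists and the control values near the middle. NFKB2, REL, IRF3, IRF5 and IRF7 were also among the 14, for example IRF3 at 67.0 and 85.7 against 34.8 and 47.6. The inhibitors of NF-kB signalling NFKBIA, NFKBIB, TNFAIP3 and SIGIRR were among them as well, and the remaining genes were the kinases IRAK4, MAP3K7 and IKBKE and the kinase partner TAB1. The kinase subunits IKBKB (61.8 and 27.4 against 46.6 and 83.6) and IKBKG (43.9 and 80.6 against 71.7 and 41.6) overlapped between the groups. Promoter peaks in both ATRA lists alone were found for 4 of the 44 genes (9.09%, against 2.19% of all genes), and in both control lists alone for 0 (against 0.308%). The 4 genes were RELA, which encodes the p65 subunit (31.1 and 51.5), UNC93B1, which carries endosomal receptors to their compartment (63.9 and 59.4), IRAK3, a negative regulator of receptor signalling (60.8 and 48.5), and TICAM1, the adaptor of TLR3 (38.6 and 8.8). The list of ATRA 2 was the longest, and its part in these counts was not tested. The named genes of this list were chosen after their values were seen, and no test was made.

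The partners of single receptors were less uniform. LY96, which binds lipopolysaccharide beside TLR4, had a promoter peak in every list without order by group (38.4 and 73.0 against 65.7 and 44.0). TLR7 had a peak at 8.9 in control 2 alone, and TLR3 had weak peaks at 2.6 in ATRA 2 and 30.4 in control 1. The kinases IRAK4 (92.7 to 97.6) and MAP3K7 (93.6 to 97.2) were high in all libraries. An ATRA-only region lay in the window of 23 of the 44 genes (52.3%, against 40.9% of all genes). A control-only region lay in that of 16 (36.4%, against 16.5%). Both kinds lay in the windows of 11, compared with 1606 of all 20163 protein-coding genes. The windows of the 44 genes held a median of 8 regions per gene against 6 for all genes. The part of this in these counts was not tested.

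Motif letters were counted in the central 200 bp of every region. AP-1 letters were present in 5 of the 84 regions (5.95%, against 7.77% over all genes), and 3 of these 5 were ATRA-only. They were the regions upstream of TLR6, downstream of TLR10 and in TWF2, and 4 of the 7 ATRA-only regions had no AP-1 match. The AP-1 share among the ATRA-only regions of all genes was not counted, so these 3 have no background of their own class. RUNX letters were in 15 regions (17.9%, against 8.24%) and GATA letters in 15 (17.9%, against 17.5%). For PU.1 the count was 9 (10.7%, against 8.48%), for CEBP 7 (8.33%, against 12.0%), for IRF 9 (10.7%, against 7.60%), for NF-kB 1 (1.19%, against 0.740%) and for the retinoid receptor letters 12 (14.3%, against 17.4%). No test was made of these counts, and a match does not show that a factor was bound.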

How the data were processed

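The data were peak lists from ATAC-seq of 4 libraries of HL-60 cells, each called separately. Per the labels and the methods, the authors removed adapters, aligned reads to hg19 with a version of Bowtie, and called peaks with MACS2 at default settings. The methods give no shift of reads to the cut site and no treatment of duplicates. The deposited score of each peak, from 50.0 to 3100, is the value of the peak caller on an unstated scale, so it was ranked within its list. Longer lists hold more weak peaks, which changes these ranks.

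Groups were taken from the sample titles. Regions were merged in Python 3.11.15 (pandas 2.3.3, scipy 1.17.1), checked against bedtools 2.31.1 and tested on simulated data, and annotated with GENCODE release 44 lifted to GRCh37. Sequences were read in Python from a genome indexed with samtools 1.23.1. Coordinates are 1-based. The sequence of 1 region is not reported here. Regions described singly were member promoters, all group-only regions, the strongest shared region of each window, and the 5 shared non-overlapping regions with the largest differences. The members, gene lists and motifs were chosen with earlier results of these data known. Library values were compared by an exact permutation test, and other windows, thresholds, widths, list lengths and left-out libraries were tried.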

Additional observations from a re-analysis of the deposited data

How the results depend on the processing

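The counts changed with the window and with single libraries. The 7 ATRA-only regions became 2 within 10 kb of the gene bodies, 0 in the gene bodies, 3 where the nearest start site was a member's, and 16 under the study's definition of specific peaks, in which a peak in 1 library of the other group is allowed. They ranged from 9 to 18 when a library was left out, with 18 without ATRA 1 and 14 without control 2. The 2 control-only regions became 7 with equal list lengths, 0 within 10 kb, 0 in the gene bodies and 8 under the study's definition, and ranged from 2 to 13 with a library left out (8 without ATRA 2, 5 without control 1 and 13 without control 2). The 6 higher regions became 2 in the gene bodies and ranged from 8 to 13 with a library left out (11 without ATRA 1, 13 without control 1 and 11 without control 2). The 6 lower regions became 2 at a score of at least 100, 2 within 10 kb, 2 in the gene bodies and 3 by nearest start site, and ranged from 9 to 13 (12 without ATRA 2 and 13 without control 1). With ranks taken only among shared regions, an alternative chosen after seeing the data, there were 4 higher and 8 lower regions. Leaving out a library loosens each definition, since fewer lists must meet it. The difference in median percentile (1.3, ATRA minus control) became -10.2 at a score of at least 100 and -6.9 without control 1, within a range of -6.9 to 9.4 over left-out libraries, and 12.6 within 10 kb, and the cause was not tested. The difference in the share of peaks (-0.0112 percentage points) ranged from -0.0219 to -0.0005 with a library left out, and the control libraries were both above the ATRA libraries at a score of at least 100 (-0.0103) and in the gene bodies (-0.0069).

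With the replicate block, in which same-numbered libraries were compared, there were 7 ATRA-only, 2 control-only, 11 higher and 9 lower regions. The replicate differences of the groups had a correlation of 0.235 over regions. With 2 pairs, and no label that ties a number to a culture or day, it is not known whether equal numbers share more than a number. Without read counts, a missing peak may be an open region below the caller's threshold.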
